A study of Mus musculus with 81 samples.

Results

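Chemoattractant receptors are the surface receptors that tell a neutrophil where to go. The set examined here holds 10 named receptor genes: the chemokine receptors Cxcr1, Cxcr2, Cxcr4 and Ccr1, the chemokine receptor-like gene Ccrl2, the formyl peptide receptors Fpr1 and Fpr2, the complement receptor C5ar1, the leukotriene B4 receptor Ltb4r1 and the platelet-activating factor receptor Ptafr. A member was every probe set (the group of array probes that measures one transcript) whose symbol in the platform's gene table is one of these names. That rule found 8 of the 10 genes, with 1 probe set each, among 19752 genes represented on the array. The array levels of Fpr1 and Fpr2 are not analysed here.

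The samples were bone marrow cells of male mice sorted for CD11b and Ly6G, the surface pair that marks neutrophils. The sample labels give the age as 6 weeks, whereas the series text gives an earlier age at which the mice were obtained. Each array measured RNA pooled from several mice of an inbred strain, and 81 Affymetrix whole-transcript arrays fell into 40 groups by sample title. The 5 groups counted here as wild-derived were WSB/EiJ, PWD/PHJ, CAST/EiJ, MSM/Ms and JF1/Ms. This origin was taken from the strain names and is not given in the labels. The 35 classical groups were 129S1/SvImJ, A/J, AKR/J, C3H/HeJ, C57BL/10J, C57BLKS/J(662), C57L/J (668), CBA/CaJ, CBA/J, CE/J, DDY/JclSidSeyFrkJ, FVB/NJ, KK.Cg-Ay/J, LGJ, LP/J(676), MA/MyJ, MRL/MpJ, NOD/ShiLtJ, NON/ShiLtJ, NOR/LtJ, NZB/BINJ, NZW/LacJ, P/J, PL/J, RIIIS/J, SEA/GnJ, SJL/J, SM/J, SWR/J, the groups titled Balb, BPL, BTBR, C57BR and DBA2, and C57BL/6J, the strain of the mouse reference sequence. There were 5 arrays of C57BL/6J, 1 each of FVB/NJ and of SWR/J, and 2 of every other group (37 groups). No mouse was treated or engineered as far as the labels say, and KK.Cg-Ay/J carries the agouti allele its name gives. For 10 arrays in 5 groups, title and genetic background label disagree about the strain: titled BPL carries the label BALB/cByJ, titled BTBR the label BPL/1J, titled Balb the label BTBR T+ tf/J, titled C57BR the label CBA/CaJ and titled DBA2 the label DBA/1LacJ. These groups are called by their titles.

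These receptors span the cell membrane and signal through G proteins when they bind their ligand, which sets the direction of crawling and triggers degranulation and the respiratory burst. Cxcr4 holds neutrophils in the marrow by binding Cxcl12, and Cxcr2 draws them out into the blood. Ccrl2 is an atypical member: it binds chemerin without signalling through G proteins. Desensitisation by receptor kinases and arrestins turns the signalling receptors off.

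The cells carried the neutrophil markers in every group. Strain means of Ly6g lay between 13.44 and 13.88, those of S100a9 between 13.46 and 13.67 and those of Ngp between 13.54 and 13.74. All levels are log2 of the deposited intensity, so a difference of 1 is a 2-fold difference, and errors are standard deviations (SD) over arrays or strains, or standard errors (SE) of a fitted difference. The 12 monocyte and macrophage markers averaged between 6.80 and 7.73 per strain, and the 18 cell cycle genes measured between 6.85 and 9.44. The array least like the others was replicate 1 of NZB/BINJ, with a median correlation of 0.962. In bulk RNA a smaller share of cells with a transcript and less transcript per cell cannot be told apart.

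The upstream sequences of 4 receptors are shown here because the results turn on them: Ccrl2 and Cxcr1 varied most between strains, and Cxcr2 and Ccr1 varied together. Each is the 250 bases before the transcript start in RefSeq (mouse build GRCm38.p6), read 5′ to 3′ on the gene's own strand. Capitals mark the core of the binding site of PU.1, a transcription factor of myeloid cells, in either orientation (GAGGAA, or TTCCTC on the other strand).
Ccrl2: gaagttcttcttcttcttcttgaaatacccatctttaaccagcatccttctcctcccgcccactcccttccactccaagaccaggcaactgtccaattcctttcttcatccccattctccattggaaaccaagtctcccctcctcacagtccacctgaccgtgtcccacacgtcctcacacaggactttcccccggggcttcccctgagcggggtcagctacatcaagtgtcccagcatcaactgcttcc
Cxcr1: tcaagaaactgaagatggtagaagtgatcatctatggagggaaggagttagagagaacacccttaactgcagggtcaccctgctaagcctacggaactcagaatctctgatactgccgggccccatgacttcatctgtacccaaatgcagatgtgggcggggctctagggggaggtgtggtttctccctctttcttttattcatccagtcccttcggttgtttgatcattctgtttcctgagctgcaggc
Cxcr2: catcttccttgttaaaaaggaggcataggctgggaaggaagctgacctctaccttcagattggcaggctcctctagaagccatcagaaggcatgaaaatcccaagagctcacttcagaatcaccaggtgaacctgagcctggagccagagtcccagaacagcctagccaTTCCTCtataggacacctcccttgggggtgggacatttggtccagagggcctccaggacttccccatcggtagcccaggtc
Ccr1: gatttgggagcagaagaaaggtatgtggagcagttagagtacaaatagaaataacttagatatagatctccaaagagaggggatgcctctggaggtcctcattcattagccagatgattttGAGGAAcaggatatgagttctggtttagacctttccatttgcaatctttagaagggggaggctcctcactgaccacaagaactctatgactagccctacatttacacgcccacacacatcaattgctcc
They lie at chr9:111057519-111057768 (Ccrl2, minus strand, the first of 3 start sites), chr1:74194632-74194881 (Cxcr1, minus strand), chr1:74153744-74153993 (Cxcr2, plus strand) and chr9:123968693-123968942 (Ccr1, minus strand). Cxcr2 holds a PU.1 core 81 bases and Ccr1 one 129 bases before the start, and the windows of Ccrl2 and Cxcr1 hold none. All 10 receptor genes had a RefSeq window. Those of 5 (Cxcr2, Ccr1, Fpr2, Ltb4r1 and Ptafr) hold the core, against 25.9% of 26994 genes with windows of the same length. The letters TTGCNNAA, a form of the C/EBP site that does not overlap the PU.1 core, were found in the windows of 0 of the 10 receptor genes and of 10.9% of all genes, both strands searched. A match describes the letters in the window only.

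The first comparison asked how far each receptor differs between inbred strains. All 8 measured receptors were called in limma's moderated F test over the 40 groups (adjusted p under 0.05, Benjamini-Hochberg over all 24922 probe sets), beside 56.0% of all probe sets and 84.9% of the 10816 brighter probe sets, those averaging at least 7, as all 8 do. Ccrl2, Cxcr1 and Ccr1 also reached a 2-fold range between their lowest and highest strain means, 3 of 8, beside 24.5% of all probe sets and 42.5% of the brighter ones. The other 5 receptors spanned between 0.34 and 0.68. The median SD over strain means was 0.15 for the 8 receptors, 0.14 for all probe sets and 0.20 for the brighter ones.

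**Figure D1:**
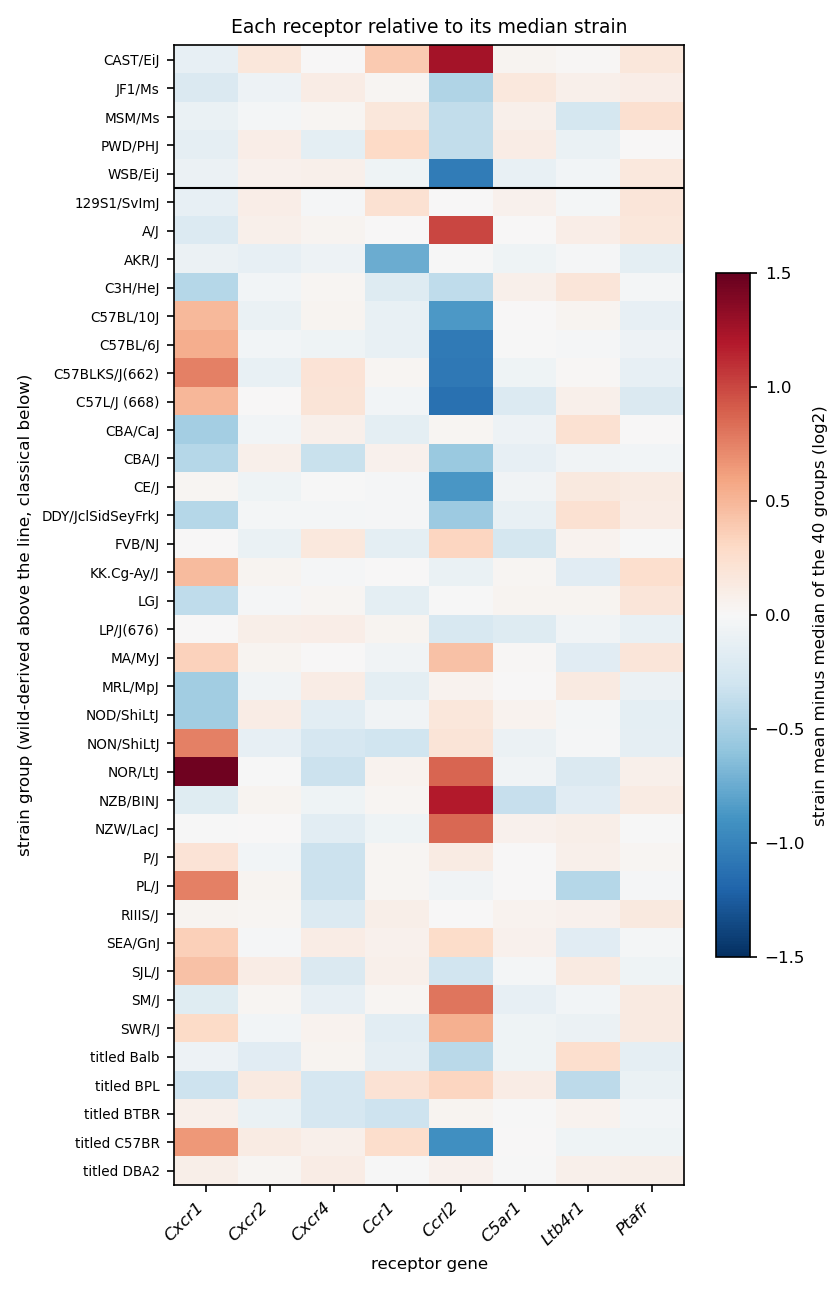
Strain means of the 8 measured receptors (columns) in the 40 groups (rows, wild-derived above the line and classical below), as the difference on the log2 scale from the receptor's median over the groups. Strong colour stands almost entirely in the Ccrl2 and Cxcr1 columns, and AKR/J stands out in the Ccr1 column.

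Ccrl2, the atypical chemerin-binding receptor, had the largest spread of the set, with an SD of 0.63 over strain means against 0.33 between arrays of a strain (adjusted p = 3.7e-11, limma). The 2 CAST/EiJ arrays stood at 8.65 and 8.47 and the 2 A/J arrays at 8.55 and 8.08. At the low end the C57L/J (668) arrays stood at 6.36 and 6.02, those of C57BLKS/J(662) at 6.38 and 6.11, and the C57BL/6J arrays at 6.11, 6.47, 6.25, 6.08 and 6.32. The highest strain mean was 8.56 in CAST/EiJ and the lowest 6.19 in C57L/J (668), a range of 5.15-fold, and the arrays of these strains did not overlap. The low end lay below the array medians, which were between 6.60 and 6.84, so the fold range depends on weak signals. Arrays of a strain could lie far apart: NZB/BINJ had 7.63 and 9.37, and its lower value is the array least like the others. NOR/LtJ had 7.69 and 8.67 and NZW/LacJ 7.80 and 8.54. No gap between neighbours in the order of strain means exceeded the SD between arrays, and the widest, 0.31, separated CBA/J from C57BL/10J. The strain means form a gradient whose neighbours lie within the spread between arrays.

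The low end of that gradient held the groups with a C57 name. The 5 of them (C57BL/6J, C57BL/10J, C57BLKS/J(662), C57L/J (668) and titled C57BR) lay between 6.19 and 6.45 for Ccrl2, and among the other 35 groups only WSB/EiJ at 6.26 and CE/J at 6.43 lay below 6.45. The same 5 groups lay between 7.47 and 7.74 for Cxcr1, where the other 35 had a median of 6.90, and ranked between 2 and 8 of 40. For Ptafr they lay between 10.98 and 11.12, with ranks between 28 and 40, and 8 of the other 35 groups lay below their highest mean. The lowest of them, C57L/J (668), had Ptafr arrays that lay far apart. For the remaining receptors they were scattered. Their ranks ran from 3 to 37 for Cxcr2, 1 to 26 for Cxcr4, 3 to 30 for Ccr1, 16 to 38 for C5ar1 and 13 to 30 for Ltb4r1. This grouping was chosen after its values were seen and carries no test. Titled C57BR, whose background label is CBA/CaJ, had 7.64 for Cxcr1 and 6.39 for Ccrl2, against 6.47 and 7.34 in the group that carries CBA/CaJ in both its labels.

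Cxcr1, a receptor for CXC chemokines whose human counterpart binds a narrower set of ligands than CXCR2, ran from 6.46 in NOD/ShiLtJ to 8.44 in NOR/LtJ, a range of 3.94-fold (SD over strains 0.44, between arrays 0.16, adjusted p = 1.2e-15, limma). The NOR/LtJ arrays stood at 8.26 and 8.61, and no array of another strain reached the lower of them. Then came C57BLKS/J(662) at 7.63 and 7.85, NON/ShiLtJ at 7.73 and 7.75 and PL/J at 7.82 and 7.65. The step of 0.70 from C57BLKS/J(662) to NOR/LtJ was the only gap between neighbours wider than the SD between arrays. Without NOR/LtJ the range was 1.28 on the log2 scale. At the low end were NOD/ShiLtJ at 6.31 and 6.61, MRL/MpJ with a mean of 6.46 and CBA/CaJ at 6.42 and 6.52. The means of these 3 strains lay below the array medians of 6.60 to 6.84, so this fold range too depends on weak signals.

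**Figure D2:**
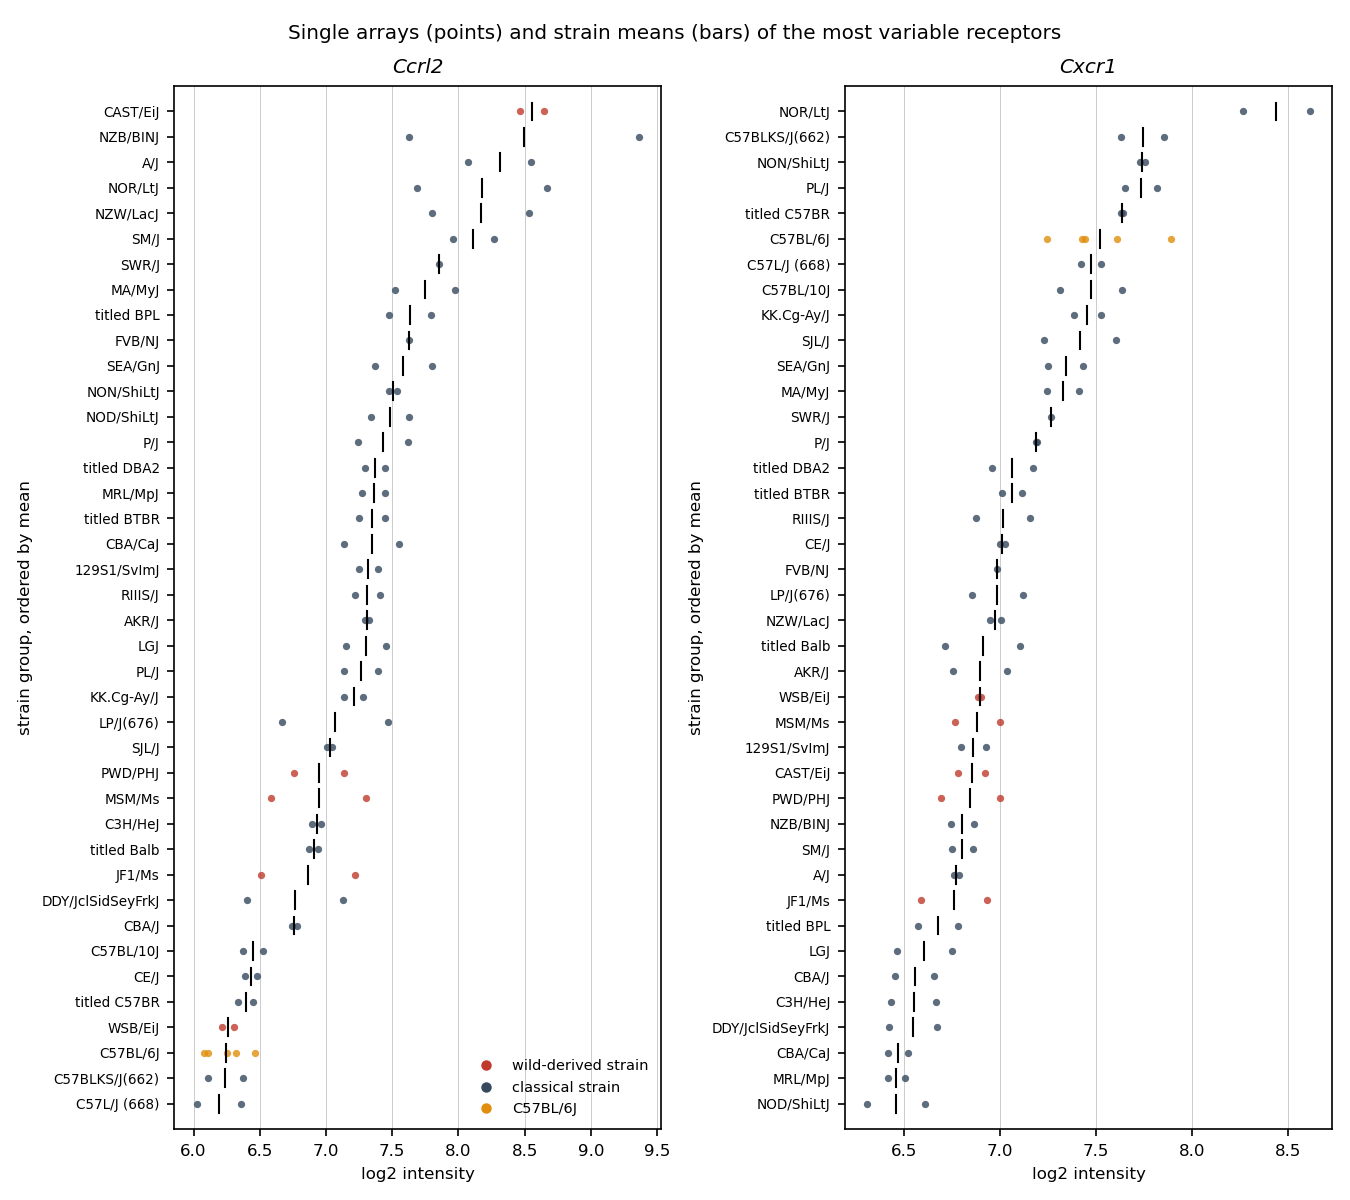
Log2 intensity of Ccrl2 (left) and Cxcr1 (right) on every array (points) with the strain mean (vertical bar), strains ordered by mean; wild-derived strains are red and C57BL/6J is orange. Ccrl2 falls away gradually to 6.19 in C57L/J (668), whereas NOR/LtJ with 8.44 for Cxcr1 is set apart from the next strain.

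Cxcr2, the main receptor for the neutrophil-attracting chemokines Cxcl1 and Cxcl2, was nearly level. Its strain means ran from 13.02 in titled Balb (arrays 13.12 and 12.92) to 13.35 in CAST/EiJ (13.37 and 13.33), with an SD of 0.08 over strains and 0.06 between arrays (adjusted p = 0.012, limma). Only 2.12% of all probe sets had a smaller SD over strains, and only 0.289% had a higher mean level. The call was lost with arrays scaled to a common median (adjusted p = 0.069) and with the 5 groups of differing labels left out (0.075). Cxcr4, the marrow retention receptor, lay between 11.99 in CBA/J (arrays 11.99 and 12.00) and 12.53 in C57BLKS/J(662) (12.42 and 12.64), with C57L/J (668) close below at 12.52 (adjusted p = 3.2e-05). NOR/LtJ and PL/J, both with a mean of 12.00, differed from CBA/J by less than 0.10, the SD between arrays pooled over all groups.

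Ccr1, which binds the CC chemokines Ccl3, Ccl6 and Ccl9 among others, owed its 2-fold range to AKR/J. The AKR/J arrays stood at 10.61 and 10.49. The next lowest means were 10.99 in titled BTBR and 11.00 in NON/ShiLtJ, and the highest was 11.68 in CAST/EiJ (11.72 and 11.65), with PWD/PHJ at 11.59 (adjusted p = 0.00015). The step of 0.43 between AKR/J and titled BTBR was the only gap between neighbours wider than the SD of 0.15 between arrays, and without AKR/J the range was 0.70, less than 2-fold.

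C5ar1, Ltb4r1 and Ptafr, whose ligands are a complement fragment and lipids, each spanned less than 2-fold. C5ar1, which binds the complement fragment C5a, lay between 11.90 in NZB/BINJ (arrays 11.83 and 11.98) and 12.40 in JF1/Ms (12.38 and 12.42), with FVB/NJ at 11.98 on its 1 array (adjusted p = 0.0059). The lower NZB/BINJ value is from the array least like the others. Ltb4r1, which binds leukotriene B4, lay between 9.88 in PL/J (9.78 and 9.98) and 10.56 in titled Balb (10.46 and 10.66), with titled BPL at 9.91 beside PL/J (adjusted p = 0.0011). For Ptafr, the receptor of the lipid mediator platelet-activating factor, C57L/J (668) was lowest at 10.98 (11.17 and 10.79) and KK.Cg-Ay/J highest at 11.44 (11.48 and 11.40), with MSM/Ms at 11.43 (adjusted p = 0.00016). The C57L/J (668) arrays lay far apart, and the higher was near the median strain mean of 11.19. The lower, replicate 2, is among the arrays least like the others, with a median correlation of 0.973. The SD over strains was 0.10 for C5ar1, 0.15 for Ltb4r1 and 0.12 for Ptafr, against 0.08, 0.13 and 0.09 between arrays.

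Each of the other 39 groups was then set against C57BL/6J. These contrasts share the 5 C57BL/6J arrays, so their counts move together. Ccrl2 was higher than in C57BL/6J in 23 of 39 groups at an adjusted p under 0.05 and a difference of at least 1, and lower in 0 (also 0 at an unadjusted p under 0.05, limma); over all probe sets and contrasts 0.929% were called higher and 0.688% lower. The differences ran up to 2.31 ± 0.26 (SE) in CAST/EiJ, 2.25 ± 0.26 in NZB/BINJ and 2.07 ± 0.26 in A/J. These SE use the spread pooled over all groups, and the NZB/BINJ arrays themselves stood far apart, at 7.63 and 9.37. C57BL/6J ranked 38 of 40 for Ccrl2. Cxcr1 was lower in 3 groups, with differences of -1.06 ± 0.13 in NOD/ShiLtJ, -1.06 ± 0.13 in MRL/MpJ and -1.05 ± 0.13 in CBA/CaJ. No other receptor was called at this size in any group, and leaving out single arrays moved the total of 26 calls between 24 and 30.

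Without the demand on size, 5.34% of all probe sets and contrasts were called higher and 4.70% lower. Cxcr1 was then lower in 25 of 39 groups and higher in 1, NOR/LtJ (0.92 ± 0.13). Ccrl2 was higher in 27, and Ptafr in 7, led by KK.Cg-Ay/J (0.33 ± 0.08) and MSM/Ms (0.32 ± 0.08). Ccr1 was lower in AKR/J (-0.63 ± 0.12) and higher in CAST/EiJ (0.50 ± 0.12) and PWD/PHJ (0.40 ± 0.12). Ltb4r1 was lower in PL/J (-0.42 ± 0.11) and titled BPL (-0.38 ± 0.11), and C5ar1 in NZB/BINJ (-0.34 ± 0.08), whose replicate 1 is the array least like the others. Cxcr2 was higher in CAST/EiJ alone (0.21 ± 0.07), and Cxcr4 in C57L/J (668) alone (0.26 ± 0.09).

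Closely related or commonly paired strains were compared next, with the spread pooled over all groups. NOD/ShiLtJ, the diabetes-prone strain, and its diabetes-resistant relative NOR/LtJ, which was bred from NOD and C57BL/KsJ stock, stood furthest apart in Cxcr1. Its arrays read 6.31 and 6.61 in NOD/ShiLtJ and 8.26 and 8.61 in NOR/LtJ, a difference of -1.98 ± 0.16 (SE, adjusted p = 3.1e-13, limma), or 3.94-fold lower in NOD/ShiLtJ. This was the only one of 8 receptors called in this pair, beside 5.56% of all probe sets. The 18 cell cycle genes averaged 8.51 in NOD/ShiLtJ and 6.85 in NOR/LtJ, and the part of that difference in the Cxcr1 result was not tested. In NON/ShiLtJ, where Cxcr1 was also above NOD/ShiLtJ, these genes averaged 9.44. The 4 megakaryocyte and platelet markers averaged 7.86 in NOD/ShiLtJ, against 6.60 in NOR/LtJ and 6.53 in NON/ShiLtJ, and their part was not tested either. NON/ShiLtJ, another strain of the same origin, exceeded NOD/ShiLtJ in Cxcr1 by 1.28 ± 0.16 (adjusted p = 4.3e-08), with arrays at 7.73 and 7.75 against 6.31 and 6.61. This too was the only receptor called in its pair, beside 5.78% of all probe sets. Cxcr2 in that pair, 13.06 in NON/ShiLtJ and 13.29 in NOD/ShiLtJ (-0.23 ± 0.08, adjusted p = 0.071), was called under 3 other settings: a common array median (-0.32, adjusted p = 0.018), a trended and robust variance prior (0.035) and the brighter probe sets alone (0.036). In both pairs the arrays of the strains did not overlap.

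Ccrl2 differed by -0.70 ± 0.31 between NOD/ShiLtJ and NOR/LtJ (adjusted p = 0.18), and by -1.19 (adjusted p = 0.035) when NOR/LtJ replicate 1 was left out. Between CBA/J and CBA/CaJ, Cxcr4 was called: 11.99 and 12.00 in CBA/J against 12.45 and 12.36 in CBA/CaJ, a difference of -0.41 ± 0.11 (adjusted p = 0.036), 1 of 8 receptors beside 1.71% of all probe sets. That call was lost under quantile normalization (0.067), under a common array median (0.056) and when any of the 4 arrays was left out (0.13 to 0.33). Between NZB/BINJ and NZW/LacJ, C5ar1 was lower in NZB/BINJ, with arrays at 11.83 and 11.98 against 12.37 and 12.25 in NZW/LacJ (-0.41 ± 0.09, adjusted p = 0.0005). In that pair 45.5% of all probe sets were called against 1 of 8 receptors, and quantile normalization gave a C5ar1 difference of -0.20 (adjusted p = 0.044). Quantile normalization also called Ptafr in that pair (0.38, adjusted p = 0.00058, against 0.13 ± 0.10 and 0.27 as reported), and a common array median called Ltb4r1 (-0.39, adjusted p = 0.024). Leaving out NZB/BINJ replicate 1 gave a Ccrl2 difference of 1.20 (adjusted p = 0.0057), against 0.33 ± 0.31 with all arrays (adjusted p = 0.38), and leaving out NZW/LacJ replicate 2 gave -0.37 for Ltb4r1 (adjusted p = 0.05), against -0.25 ± 0.13 (adjusted p = 0.11). C57BL/10J against C57BL/6J and MRL/MpJ against LGJ gave 0 of 8 receptors each in limma, beside 2.65% and 3.84% of all probe sets; at an unadjusted p under 0.05 they gave 0 and 1. In these pairs the largest receptor differences were 0.20 ± 0.26 for Ccrl2 and -0.27 ± 0.10 for Ptafr (adjusted p = 0.14), which quantile normalization called (-0.28, adjusted p = 0.041).

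**Figure D3:**
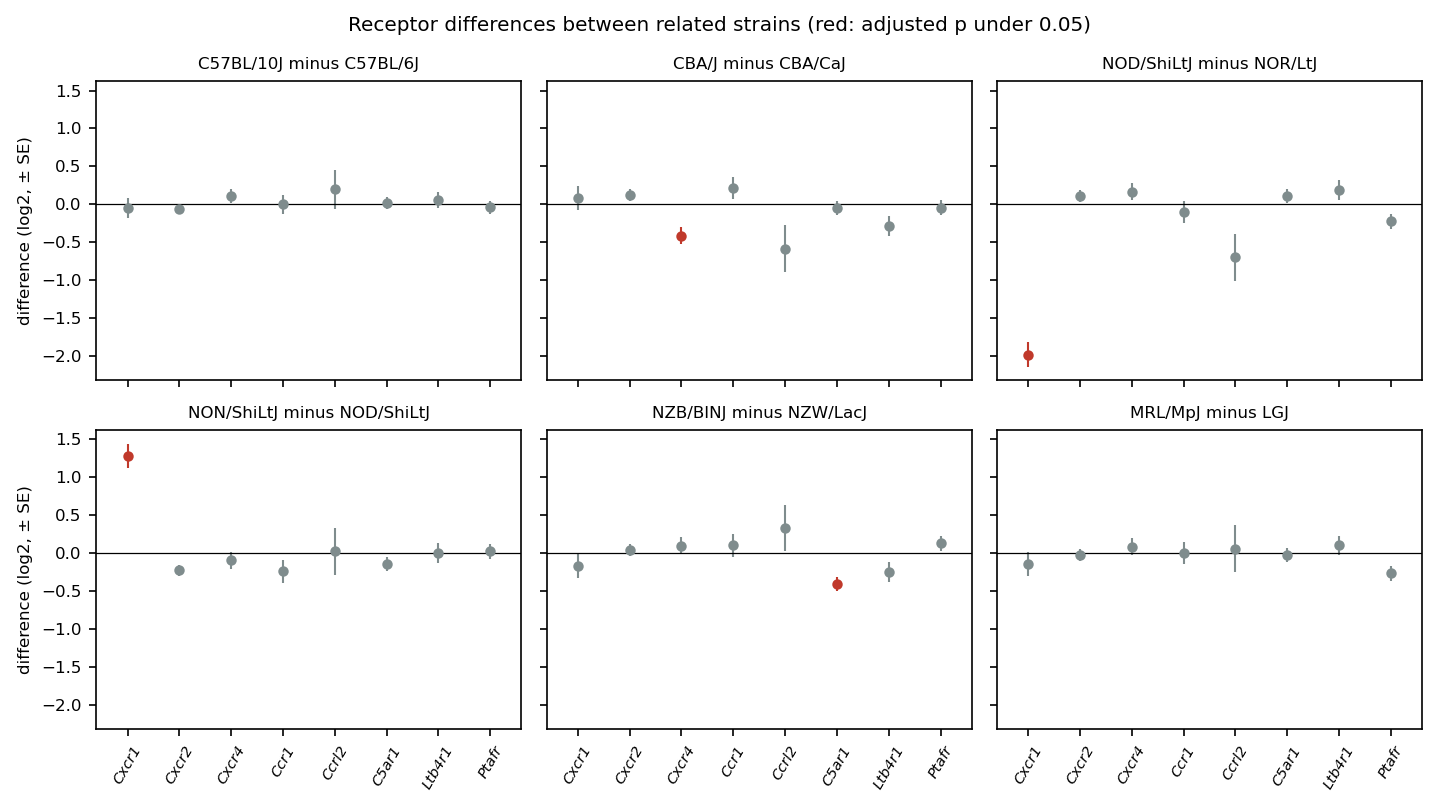
Difference in log2 intensity, first strain minus second, of the 8 receptors in 6 pairs of related strains; points are fitted differences, bars are SE and red marks an adjusted p under 0.05. Cxcr1 is at -1.98 in NOD/ShiLtJ minus NOR/LtJ and at 1.28 in NON/ShiLtJ minus NOD/ShiLtJ, and the other called differences are -0.41 each.

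The wild-derived strains were compared with the classical strains, each strain mean counting as 1 replicate. Related strains, such as the groups with a C57 name, counted separately, so these p-values can be too small. None of the 8 receptors was called in limma, beside 12.2% of all probe sets (6.64% higher and 5.55% lower in wild-derived strains), and 2 of 8 had an unadjusted p under 0.05, near the 26.6% of all probe sets that did. Ccr1 averaged 11.46 ± 0.19 in the 5 wild-derived strains and 11.24 ± 0.18 in the 35 classical strains (SD), a difference of 0.21 ± 0.08 (SE, adjusted p = 0.089). With WSB/EiJ left out that difference was 0.27 and was called (adjusted p = 0.04), and with AKR/J left out it was 0.19 (adjusted p = 0.049). Ptafr averaged 11.32 ± 0.09 in wild-derived and 11.20 ± 0.12 in classical strains (0.13 ± 0.06, adjusted p = 0.15), with 5 of 5 wild-derived strains above the classical median. C5ar1 differed by 0.09 ± 0.05 (adjusted p = 0.22), and by 0.14 (adjusted p = 0.05) after quantile normalization.

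The wild-derived strains were alike in Cxcr1, between 6.76 in JF1/Ms and 6.89 in WSB/EiJ, with an SD of 0.05, whereas the 35 classical strains had an SD of 0.46. All 5 lay below the classical median of 7.01, and the difference of means was -0.25 ± 0.20 (adjusted p = 0.46). Their Cxcr1 levels were close to the array medians of 6.60 to 6.84, where signals are weak. For Ccrl2 the same 5 strains covered most of the whole range, from 6.26 in WSB/EiJ to 8.56 in CAST/EiJ. Their mean was 7.11 ± 0.86, against 7.28 ± 0.60 in classical strains (adjusted p = 0.77). Cxcr2, Cxcr4 and Ltb4r1 differed by 0.05 ± 0.04, 0.07 ± 0.07 and -0.06 ± 0.07, with adjusted p-values between 0.46 and 0.65.

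**Figure D4:**
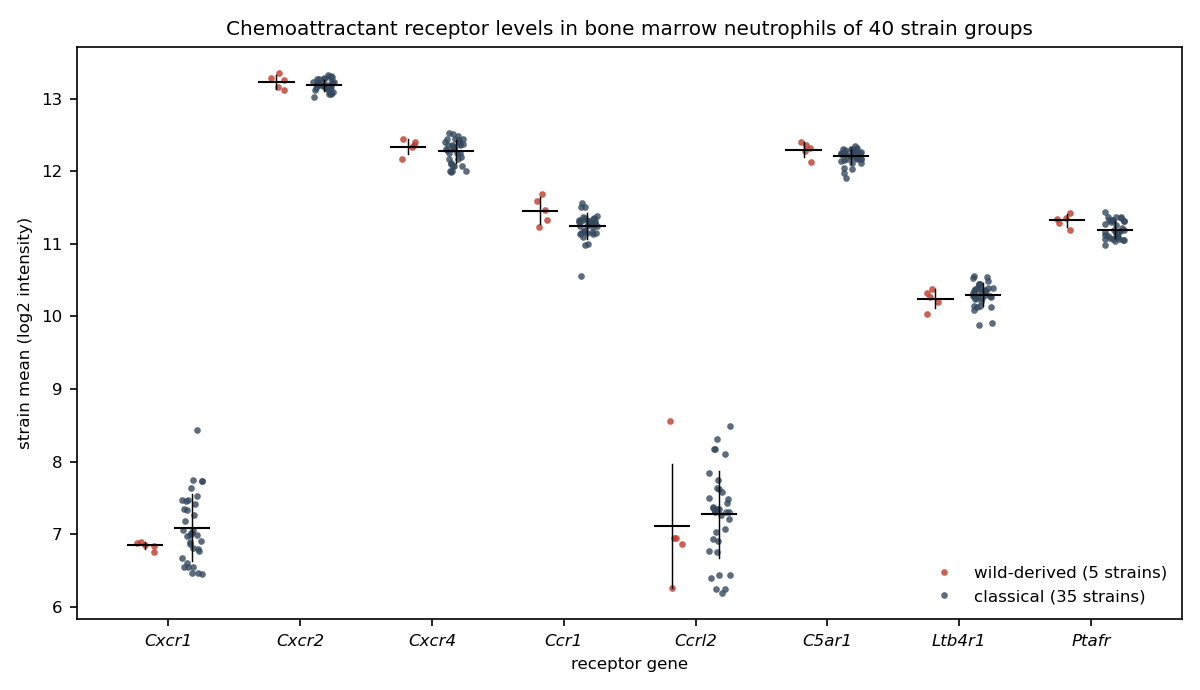
Strain means (points, log2 intensity) of each receptor in the 5 wild-derived strains (red, left of each pair) and the 35 classical strains (dark, right), with the mean (horizontal bar) and SD (vertical bar). The wild-derived points for Cxcr1 lie within 6.76 to 6.89, while for Ccrl2 they run from 6.26 to 8.56.

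Whether receptors rise and fall together over strains was asked for all 28 pairs of the 8 receptors. The permutations treat the 40 strain means as independent although some strains are related, so their p-values can be too small. Cxcr2 and Ccr1 were correlated (Pearson r = 0.70, Spearman rho = 0.69 over 40 strain means, permutation p = 1e-05 for each, the smallest the 100000 resamples can give, 2-sided, adjusted p = 0.00028 over the 28 pairs). Without CAST/EiJ and titled Balb, the strains farthest from the median of Cxcr2, r was 0.67. Between arrays of the same strain r was 0.57, so arrays high in Cxcr2 also tended to be high in Ccr1 within strains. No other pair was called. The most negative pair was Cxcr2 with Ltb4r1 (r = -0.38, adjusted permutation p = 0.17), and Cxcr1 and Cxcr2, which neighbour each other on chromosome 1, had r = -0.13.

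The marrow sort holds neutrophils of several stages of maturation. Each receptor was therefore set beside the mean of 4 gene lists that follow the stage or another cell type: cell cycle, azurophil granule and progenitor, mature neutrophil, and monocyte and macrophage genes. Of these 32 relations 2 were called, both of Ccr1, and 9 were called after quantile normalization. It was lower where the azurophil granule and progenitor genes were higher (r = -0.63, rho = -0.63, permutation p = 1e-05 and 4e-05, adjusted p = 0.00032 and 0.0013). Without AKR/J and CAST/EiJ r was -0.64, and between arrays of a strain it was -0.39. With the cell cycle genes r was -0.55 and rho -0.49 (permutation p = 7e-05 and 0.0013, adjusted p = 0.0011 and 0.021), r was -0.50 without AKR/J and CAST/EiJ, and between arrays of a strain it was 0.06. AKR/J had 8.97 for the cell cycle and 8.07 for the azurophil list, against 7.06 and 7.61 in CAST/EiJ, the strain with the highest Ccr1. Ptafr came nearest among the rest, with r = -0.42 with each of these lists (adjusted permutation p = 0.053 for each), and Cxcr2 had r = -0.38 with the azurophil list (0.096). Between arrays of a strain the highest r were those of Ccr1 and Ccrl2 with the mature neutrophil genes, 0.70 and 0.69, against 0.33 and 0.31 over strain means. The value of Ccrl2 includes the NZB/BINJ arrays, which stood far apart at 7.63 and 9.37, and was not computed without them.

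**Figure D5:**
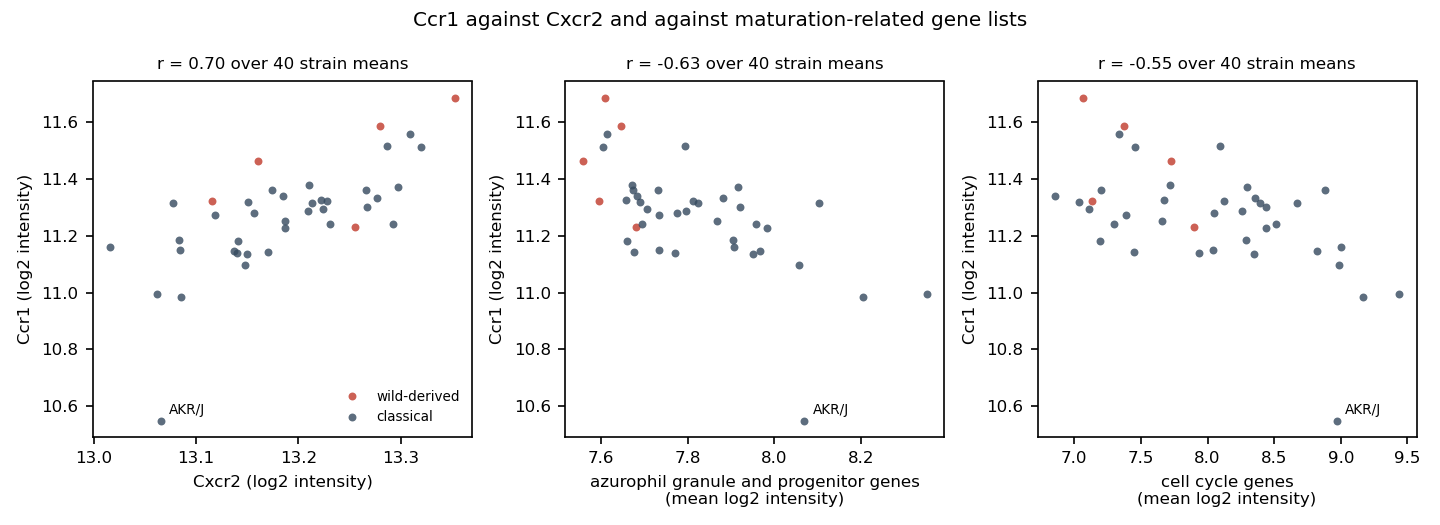
Strain means of Ccr1 (vertical axes, log2 intensity) against Cxcr2 (left) and against the mean log2 intensity of the azurophil granule and progenitor list (middle) and of the cell cycle list (right); each point is a strain group, wild-derived in red. Ccr1 increases with Cxcr2 (r = 0.70) and decreases with both lists (r = -0.63 and -0.55), and AKR/J lies below the other points.

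Marker lists of other cell types are given as descriptions. Ccrl2 had its highest r, 0.55 over the 40 strain means, with the 8 measured T and NK cell markers, of which 1 had a mean of at least 7. Their list mean ran from 5.96 in titled C57BR to 6.78 in FVB/NJ, and stood at 6.04 in C57BL/6J. The part of these markers in the Ccrl2 result was not tested. Ptafr had r = -0.50 with the specific granule list, and Ltb4r1 had r = 0.53 with the neutrophil identity list.

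The genes whose strain pattern was most like each receptor were taken as the 3 with the highest r over 40 strain means among 10434 genes, so these values describe a selected extreme. C5ar1 was closest to Pfn1 (r = 0.85), which encodes the actin-binding protein profilin, then to Rtn3 (0.79) and Gps2 (0.79). Ccr1 was closest to Ccpg1 (0.78), Plek (0.75), which encodes pleckstrin, and Ptprc (0.74), the CD45 gene. Ptafr was closest to Klf3 (0.70), Ip6k1 (0.70) and Zbtb39 (0.68), Ltb4r1 to Serpinb1a (0.67), an inhibitor of neutrophil serine proteases, and Cxcr1 to Snai1 (0.64). Cxcr2 was closest to Ssh2 (0.62), a cofilin phosphatase, and Cxcr4 to Syf2 (0.51). Ccrl2 was closest to Tcerg1l (0.60), Nod2 (0.56), a sensor of bacterial peptidoglycan, and Herpud1 (0.55). Among the genes next to a receptor on its chromosome, C5ar2, a second C5a receptor beside C5ar1, had an SD of 0.36 over strains and r = 0.41 with C5ar1. Dnajc8 beside Ptafr had r = -0.52 with it, and Ltf, the lactoferrin gene beside Ccrl2, had r = -0.11.

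Other receptors for chemoattractants were measured for 28 of 32 listed genes. Of these, 16 (57.1%) differed between strains and 9 (32.1%) did so with a 2-fold range, beside 56.0% and 24.5% of all probe sets. Their median SD was 0.13. Of the 11 that averaged at least 7, 8 differed and 5 had a 2-fold range, beside 84.9% and 42.5% of the brighter probe sets. The largest SD over strains, 0.45, was in S1pr1, the sphingosine 1-phosphate receptor of leukocyte egress, at 8.71 in CAST/EiJ and 6.56 in KK.Cg-Ay/J (adjusted p = 6.1e-15). Wider ranges at lower mean levels were those of Ccr9 and Ccr2. Ccr9 stood at 7.57 in RIIIS/J and 4.99 in NZB/BINJ, and Ccr2, the monocyte chemokine receptor, at 6.83 in C57BLKS/J(662) and 4.07 in NOD/ShiLtJ. The lowest means of S1pr1, Ccr9 and Ccr2 lay below the array medians of 6.60 to 6.84, so these ranges depend on weak signals. Even the highest Ccr2 mean was no higher than the highest array median. P2ry2, a nucleotide receptor, ran from 7.81 in C57L/J (668) to 9.59 in NOR/LtJ, and Gpr84, a receptor for medium-chain fatty acids, from 9.77 in LP/J(676) to 11.40 in MRL/MpJ. By origin, Cxcr6 was higher in wild-derived strains (6.32 ± 0.33, against 5.75 ± 0.16 in classical strains, adjusted p = 1.5e-05), as was Fpr-rs3, a relative of the formyl peptide receptors (7.13 ± 0.13 against 6.99 ± 0.09, adjusted p = 0.039). Both Cxcr6 means lay below the array medians of 6.60 to 6.84 and those of Fpr-rs3 not far above, where signals are weak. These 2 of 28 higher and 0 lower stand beside 6.64% and 5.55% of all probe sets, and 7 were higher and 1 lower at an unadjusted p under 0.05 (limma), beside 15.6% and 11.0%.

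Of the 28 ligands and ligand-making enzymes, all measured, 19 (67.9%) differed between strains and 8 (28.6%) with a 2-fold range, beside 56.0% and 24.5% of all probe sets, with a median SD of 0.14. Of the 13 that averaged at least 7, 12 differed and 6 had a 2-fold range, beside 84.9% and 42.5% of the brighter probe sets. Ppbp, a chemokine of platelets that acts on Cxcr2, reached 9.84 in NOD/ShiLtJ and was 5.47 in SEA/GnJ. The 4 measured megakaryocyte and platelet markers, which include Ppbp, also had their highest mean in NOD/ShiLtJ, 7.86, and their part was not tested. Ccl3, a ligand of Ccr1, ran from 6.91 in MSM/Ms to 10.43 in SM/J, and Ccl9, another, from 6.64 in RIIIS/J to 8.03 in CBA/CaJ. Cxcl2, a ligand of Cxcr2, was 8.18 in NZB/BINJ and 5.14 in the group titled Balb. The lowest means of Ppbp and Cxcl2 lay below the array medians of 6.60 to 6.84 and that of Ccl9 among them, so these ranges depend on weak signals. Pla2g4a, the phospholipase that frees arachidonic acid for leukotriene synthesis, was 8.62 in NZB/BINJ and 10.17 on the 1 FVB/NJ array. In wild-derived strains 5 of the 28 were lower and 0 higher, beside 5.55% and 6.64% of all probe sets (6 lower and 2 higher at an unadjusted p under 0.05, limma, beside 11.0% and 15.6%). Ccl3 averaged 7.60 ± 0.55, against 8.84 ± 0.81 in classical strains (-1.24 ± 0.36, adjusted p = 0.019). Lpcat1, an enzyme of platelet-activating factor synthesis, differed by -0.40 and Camp, the cathelicidin gene, by -0.37. Hc, which encodes the source of C5a, differed by -0.21 and Alox5ap, the partner of the lipoxygenase that starts leukotriene synthesis, by -0.16.

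Of 43 genes of receptor coupling and desensitisation 40 were measured, with a median SD of 0.14. Of these, 30 (75.0%) differed between strains and 7 (17.5%) did so with a 2-fold range, beside 56.0% and 24.5% of all probe sets. Most of the 40 genes are bright: of the 37 that averaged at least 7, 28 differed and 5 had a 2-fold range, smaller shares than the 84.9% and 42.5% of the brighter probe sets. Rgs3, a regulator that shortens G protein signalling, stood at 7.49 in MSM/Ms and 10.99 in C57L/J (668). Plcb4 and Plcb3 are phospholipases activated by G proteins: Plcb4 was lowest in KK.Cg-Ay/J at 5.75 and highest in DDY/JclSidSeyFrkJ at 7.40, and Plcb3 ran from 8.17 in SWR/J, on 1 array, to 10.08 in MSM/Ms. The receptor kinases Grk3 and Grk5 ran from 5.83 in JF1/Ms to 7.80 in NOD/ShiLtJ, and from 7.74 in NZB/BINJ to 9.29 in CAST/EiJ. The lowest means of Plcb4 and Grk3 lay below the array medians of 6.60 to 6.84, where signals are weak. By origin, wild-derived strains had 4 of the 40 higher and 4 lower, beside 6.64% and 5.55% of all probe sets. Rgs3 averaged 8.74 ± 1.49 in wild-derived and 10.63 ± 0.22 in classical strains (-1.89 ± 0.24, adjusted p = 6e-07, limma). That SE comes from 1 spread pooled over the 40 strain means, so it understates the uncertainty of the wild-derived mean. The wild-derived strains were far from alike in Rgs3, with MSM/Ms at 7.49. The other lower genes with the largest differences were Grk3 (-0.65 ± 0.16), Plcb4 (-0.61 ± 0.17) and Gng12, a G protein subunit (-0.54 ± 0.13). Rgs2, another regulator of G protein signalling, was higher (0.40 ± 0.10).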

How the data were processed

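Per the submitters' processing notes, Affymetrix Power Tools and RMA were used, with no version or order given. The authors deposited 1 intensity per probe set and array, between 5.30 and 19348, whose linear scale was read from the values. The genome build behind the probe sets is not given in the sources used here. From these deposited intensities log2 values were computed, with no further scaling; array medians lay between 6.60 and 6.84 (log2). The number of arrays per strain, mostly 2, limits the precision. The p-values of strain differences and strain contrasts measure the spread between arrays of pooled mice. Those by origin and those of correlations rest on strain means and measure the spread between strains, with related strains counted as independent.

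Probe sets with 1 symbol in the platform's gene table were named, and a gene was its brightest probe set. Groups follow sample titles. Strain differences, contrasts and the comparison by origin were fitted over all probe sets with lmFit and eBayes of limma 3.58.1 in R 4.3.3 and Benjamini-Hochberg adjustment. Contrasts with C57BL/6J were called with a difference of at least 1 as well. Correlations used 2-sided permutation tests with 100000 resamples in Python 3.11.15 with scipy 1.17.1. Both procedures were tested on simulated data. The members and lists were chosen with earlier results of these data known. Named genes were the members, the 3 genes most alike and the neighbours of each, and up to 5 genes per list by SD or by difference between origins. Alternatives changed the normalization, the variance prior, the filter, the grouping and the arrays used.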

Additional observations from a re-analysis of the deposited data

How the results depend on the processing

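The counts of receptors called kept within 1.5 times of the reported ones in most settings. Those that differed between strains numbered 7 to 8, those with a 2-fold range 2 to 3, the calls against C57BL/6J 23 to 26 (26 as reported) and the calls in related pairs 3 to 5 (4 as reported). With each array left out in turn the counts were 8 to 8, 3 to 3, 24 to 30 and 3 to 5, and with each wild-derived strain left out the calls by origin were 0 to 1. The calls by origin went to 1 under quantile normalization (C5ar1), without WSB/EiJ (Ccr1) and with AKR/J left out (Ccr1), the last chosen after seeing the data. The relations of receptors with stage lists, 2 as reported, went to 9 under quantile normalization and to 4 each with groups taken from the background label, with the groups of 1 array left out and with the wild-derived strains left out; the cause was not tested. Cxcr2 with Ccr1 was the only correlated pair in each of the 7 alternatives run for it, 1 of them chosen after seeing the data. Of 1621 recomputed results of single receptors, 1601 kept direction and side of the threshold, 8 lost the call, 12 gained it and 0 reversed.

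Replicate numbers in the titles were not taken to pair the arrays: same-numbered arrays of different groups had a median correlation of deviations of 0.02 (from -0.61 to 0.70 over 630 pairs of groups, 203 over 0.1). With the number as a replicate block the counts were 8 for strain differences, 3 with a 2-fold range, 0 by origin, 25 against C57BL/6J and 4 in related pairs.

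With mostly 2 arrays per strain, a strain's own spread is poorly known. No batch is given in the labels. The probes follow a reference sequence, and whether a sequence variant under a probe lowered a signal in some strains was not tested. Cells of different maturation stages were measured together. Protein on the cell surface was not measured. A check for samples far from their group covered 16 sets of values, in the only group with more than 3 arrays and in the wild-derived strains, and flagged none. It could not flag arrays that lay far apart in groups of 2, such as NZB/BINJ. It also did not flag CAST/EiJ, whose Ccrl2 mean of 8.56 stood above the 6.95 of PWD/PHJ, the next wild-derived strain.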
